A study of Mus musculus with 2 samples.

Results

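The 9 genes described here are the MAP kinase phosphatase genes Dusp1, Dusp2, Dusp4, Dusp5, Dusp6 and Dusp10 and the cytokine signalling suppressor genes Socs1, Socs2 and Socs3. They were taken by symbol from the 41605 genes of 2 droplet libraries (10x Genomics 3' chemistry, version 3) of mouse hippocampus, and each symbol matched 1 gene. Both libraries, called library 2 and library 1, held pooled hippocampal cells of 3 wild-type C57BL/6 male mice at 10 weeks of age, passed over a Percoll gradient. The study set digestion with enzymes at 37 °C for 30 min against mechanical release at 4 °C, but no label ties either library to a method. Both are therefore unassigned, nothing here stands for a method, and comparisons were made between cell classes of the same library. There were no replicates and no tests: the 95% intervals cover the counting of UMIs (unique molecular identifiers, each standing for 1 captured transcript). They leave out differences between mice and preparations, and those of levels and ratios also leave out differences between cells.

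DUSP proteins of this group remove phosphate from the threonine and the tyrosine that switch on MAP kinases. DUSP1, DUSP2, DUSP4 and DUSP5 act in the nucleus, DUSP6 acts on ERK in the cytoplasm, and DUSP10 acts mainly on p38 and JNK. SOCS proteins bind activated cytokine receptors or JAK kinases through an SH2 domain, and recruit a ubiquitin ligase through their SOCS box. Many of these genes are themselves induced by the pathway that their protein shuts down, so that they act as negative feedback, and in microglia, the resident macrophages of the brain, they limit responses to cytokines and damage signals.

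The bases upstream of Dusp1, Socs3 and Dusp6 are shown because these genes carried most member UMIs of microglia-like cells and differed in how they varied between cells. Promoters of 7 of the 9 members were in the RefSeq table used (GRCm38.p6); those of Dusp4 and Socs2 are not used here. Each line gives the 250 bases before the start that RefSeq annotates, 5′ to 3′ along the gene, from chr17:26508473-26508722 (minus strand) for Dusp1, chr11:117969367-117969616 (minus strand) for Socs3 and chr10:99262981-99263230 (plus strand) for Dusp6. The GENCODE genes given further on start farther upstream for Dusp1 and Socs3, so that these windows lie inside the GENCODE gene spans. Capitals mark matches to the motifs searched.
Dusp1: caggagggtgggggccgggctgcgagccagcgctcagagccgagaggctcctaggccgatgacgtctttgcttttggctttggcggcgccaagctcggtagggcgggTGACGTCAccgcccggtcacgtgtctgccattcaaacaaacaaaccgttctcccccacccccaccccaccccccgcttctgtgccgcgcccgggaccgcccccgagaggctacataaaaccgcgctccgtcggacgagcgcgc
Socs3: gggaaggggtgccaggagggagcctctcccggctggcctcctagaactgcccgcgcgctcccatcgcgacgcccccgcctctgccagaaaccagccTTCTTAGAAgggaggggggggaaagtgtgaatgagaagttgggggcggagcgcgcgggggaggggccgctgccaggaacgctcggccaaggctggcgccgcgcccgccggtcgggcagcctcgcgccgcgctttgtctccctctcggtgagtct
Dusp6: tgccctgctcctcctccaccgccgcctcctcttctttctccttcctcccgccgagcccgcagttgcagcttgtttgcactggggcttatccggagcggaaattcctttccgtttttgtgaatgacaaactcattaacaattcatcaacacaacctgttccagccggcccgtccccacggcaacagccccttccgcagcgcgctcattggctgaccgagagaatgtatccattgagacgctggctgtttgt
Both strands were searched for the cAMP response element TGACGTCA, the AP-1 site TGANTCA, the GAS site TTCNNNGAA bound by STAT factors, the TATA box TATAAA, and the CArG box and NF-kB site by name. The Dusp1 window held the cAMP response element, ending 136 bases before the start, as did 1.56% of the 32536 promoter windows of this length. The Socs3 window held a GAS site, 154 to 146 bases before the start, as did 7.04% of all windows. The Dusp6 window held none of the 6 motifs. Of the other windows, that of Dusp5 held a pair of adjoining CArG boxes (1.48% of all windows hold at least 1), and those of Dusp2, Dusp10 and Socs1 held no match. A match is a description of letters and was not tested as a binding site.

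Library 2 held 6448 barcodes with 29356086 UMIs and library 1 held 12306 barcodes with 18783691 UMIs. Filters on UMIs, genes, mitochondrial share and doublets kept 2077 cells of library 2 (median 6440.0 UMIs) and 5989 of library 1 (median 1695). The median mitochondrial share over all barcodes was 13.3% in library 2 and 1.76% in library 1. The libraries shared 19 barcodes, 3 of them among kept cells. Cells were gated by marker genes, and a class is called "-like" because it rests on RNA alone. Classes of at least 50 cells in library 2 were microglia-like (1343 cells, median 6693 UMIs), endothelial-like (134 cells), choroid plexus-like (53 cells) and pericyte or smooth muscle-like (51 cells). In library 1 they were neuron-like (2515 cells, median 1826 UMIs), microglia-like (641 cells, median 2228 UMIs), astrocyte-like (186 cells), oligodendrocyte-like (92 cells) and choroid plexus-like (58 cells). All 9 microglia markers were detected in the microglia-like cells of both libraries, with a summed level of 18167 CPM (UMIs of a gene scaled to a class total of 1e6) in library 2 and 17206 CPM in library 1. In the microglia-like cells of library 2 the choroid plexus marker list had a median of 1731 CPM over cells, the erythrocyte list 281 CPM and the astrocyte list 223 CPM, and the other 10 lists had medians of 0. In those of library 1 the oligodendrocyte list had a median of 654 CPM, the astrocyte list 422 CPM and the neuron list 396 CPM, and the other 10 lists had medians of 0. The part of these lists in the member levels was not tested. For microglia-like cells, 114 lay just inside the gate and 40 just outside it in library 2, and 57 and 15 in library 1. The neuron-like class held all 10 of its markers but none of them among its 10 leading genes. The neuron gate was a range and not a sharp type: 669 neuron-like cells lay just inside its limit, 513 cells just outside, and 2189 cells that led with neuron markers stayed ungated.

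Socs3, Dusp1 and Dusp6 made up nearly all member UMIs of the microglia-like cells of library 2, whereas Dusp6 alone led in those of library 1. In library 2 the microglia-like sum over the 9 members was 1879 CPM (1851 to 1907), of which Socs3 gave 52.4%, Dusp1 25.7% and Dusp6 21.1%. In library 1 they reached 257 CPM (232 to 285), of which Dusp6 gave 82.7% and Socs3 9.57%. Of the 6 members with at least 20 UMIs in at least 1 pair of microglia-like cells and another class, 2 (Dusp6 and Socs3) were at least 2-fold higher in microglia-like cells than in every other class of library 2, where 13.1% of 13145 genes passed the same rule. Dusp6 and Socs3 passed in library 1 too, where 8.96% of 14372 genes did. The other 4 members tested there (Dusp1, Dusp4, Dusp5 and Socs2) failed because they were at least 2-fold lower than in neuron-like cells. They had too few UMIs against every other class, so that the count says nothing about them there. With classes taken from clusters, only Socs3 passed in library 2. That setting adds neuron (55 cells), oligodendrocyte (50 cells) and monocyte or neutrophil (67 cells) classes to the comparison there. The last comes from a cluster of 78 cells of both libraries, in which 19 cells were gated, 10 of them as monocyte or neutrophil-like. In library 1 the Socs3 call rested on 36 UMIs and was lost under 4 of the alternative settings.

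Class by class, the microglia-like cells of library 2 were higher than pericyte or smooth muscle-like cells for Dusp1, Dusp6 and Socs3. Of all genes, 29.3% were higher and 20.4% lower there. Dusp2, Socs1 and Socs2 met the filter of 20 UMIs only through microglia-like cells, and were called higher on 0 UMIs in 51 cells. Those zeros allow up to 13.2 CPM, above the microglia-like levels, so the direction is not known and no count of members is read. Of 6 members tested against choroid plexus-like cells, Dusp1, Dusp6 and Socs3 were higher, as were 41.5% of genes, and Socs2 was lower, as were 18.7%. Dusp2 was called higher too, but on 0 UMIs in 53 cells. These allow up to 6.67 CPM, above the microglia-like level of 4.62 CPM, so its direction is not known. Endothelial-like cells were higher than choroid plexus-like cells for 4 of 5 members tested (Dusp1, Dusp6, Socs2 and Socs3), where 38.8% of genes were higher and 16.3% lower. In library 1 only Dusp6 and Socs3 had the 20 UMIs needed against the smaller classes, nearly all of them from microglia-like cells, so that their calls were largely set by that filter and no count is read from them. They were higher in microglia-like cells against astrocyte-like cells (32.4% of genes higher, 18.9% lower), oligodendrocyte-like cells (27.4% higher, 17.1% lower) and choroid plexus-like cells (43.6% higher, 11.7% lower). Socs3 had 36 UMIs in microglia-like cells, against 1 in astrocyte-like, 0 in oligodendrocyte-like (a limit of 11.8 CPM) and 2 in choroid plexus-like cells. Of 5 members tested against astrocyte-like cells, neuron-like cells were higher for Socs2, where 32.4% of genes were, and lower for Dusp1, as were 14.5%. Of 5 members tested against choroid plexus-like cells, they were higher for Socs2, where 55.9% of genes were higher and 15.2% lower. Dusp5 was called higher against both classes and Dusp4 against choroid plexus-like cells, but on 0 UMIs in the smaller class. Those zeros allow up to 11.7 CPM in astrocyte-like and 14.6 CPM in choroid plexus-like cells. Both limits are above the neuron-like levels, so the direction is not known. Dusp6 was called higher against choroid plexus-like cells too, on 2 UMIs there, whose interval of 1.18 to 35.1 CPM holds the neuron-like level of 28.7 CPM.

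**Figure D1:**
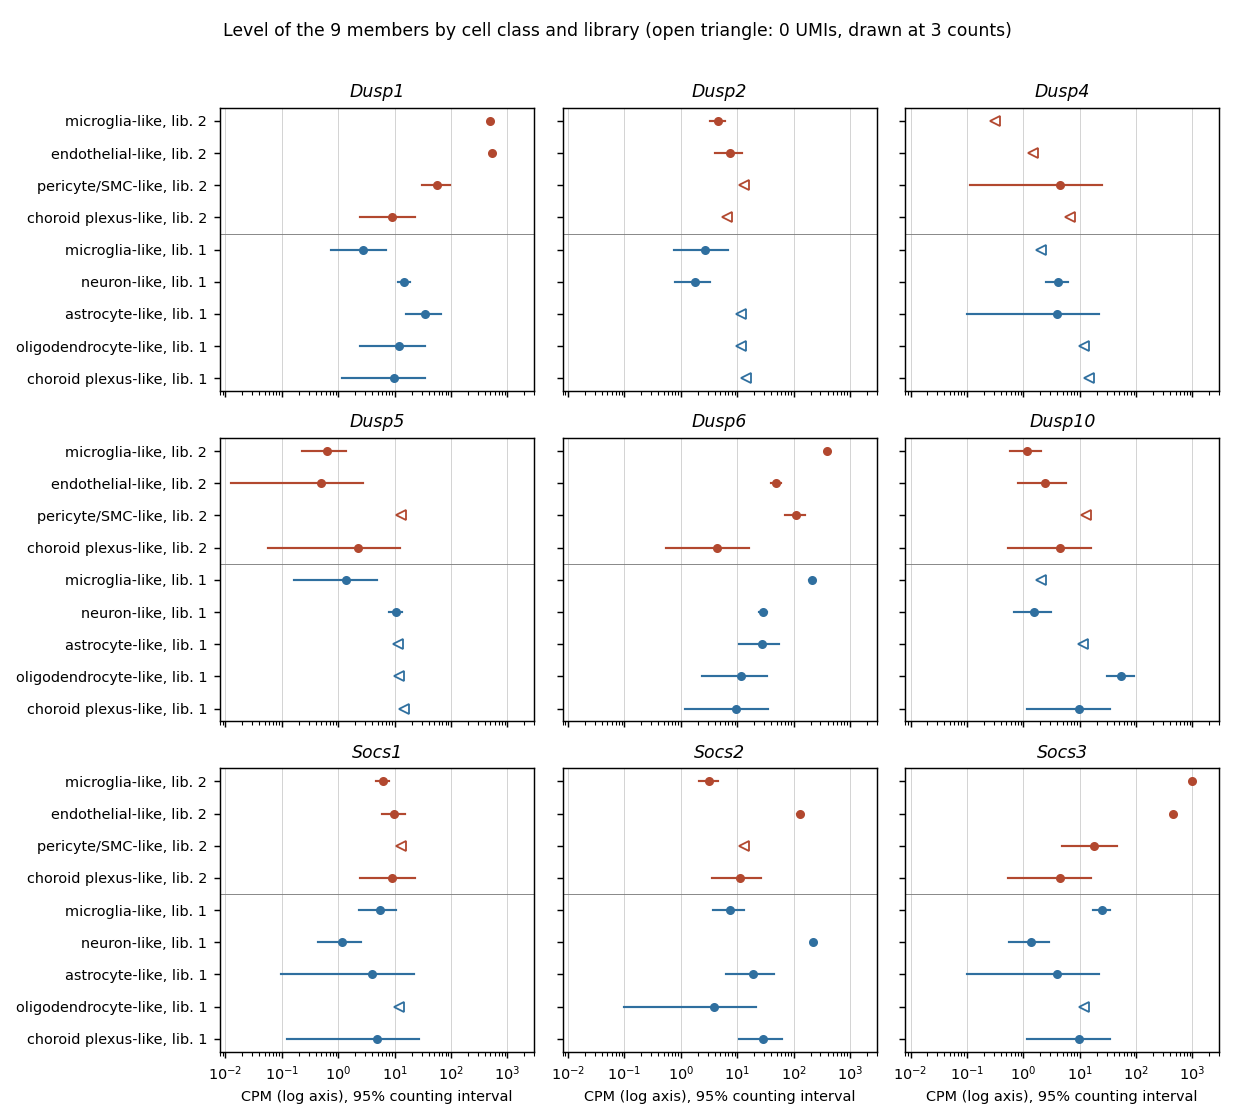
Level of each of the 9 genes (CPM, log axis) in the compared cell classes of library 2 (red, above the line) and library 1 (blue, below it), with 95% counting intervals as horizontal bars; an open triangle marks a class with 0 UMIs, drawn at the limit of 3 counts. Dusp1 and Socs3 reach at least 454 CPM in microglia-like and endothelial-like cells of library 2 and stay at or below 35.0 CPM in every class of library 1, Dusp6 is highest in microglia-like cells of both, and Socs2 is highest in endothelial-like cells of library 2 and neuron-like cells of library 1.

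Dusp1 (ENSMUSG00000024190, chr17:26505590-26562128, minus strand, GENCODE M21 on GRCm38) encodes an inducible nuclear phosphatase of p38, JNK and ERK. In library 2 its level was 483 CPM (469 to 497, 4602 UMIs) in microglia-like, 531 CPM (499.9 to 564, 1084 UMIs) in endothelial-like, 57.1 CPM (13 UMIs) in pericyte or smooth muscle-like and 8.90 CPM (4 UMIs) in choroid plexus-like cells. Microglia-like and endothelial-like cells thus stood far above the other classes, and microglia-like cells were 8.46-fold (4.94 to 15.9) above the next of them. The order of the leading pair was not stable: without the cells over 30000 UMIs, which left 118 endothelial-like cells, the endothelial-like level was 374 CPM, below the microglia-like level of 483 CPM, and a mean of CPM over cells gave 373 CPM in endothelial-like and 395 CPM in microglia-like cells. In library 1 the microglia-like level was 2.74 CPM (0.746 to 7.01), from 4 UMIs in 641 cells. There Dusp1 was highest in astrocyte-like cells at 35.0 CPM (9 UMIs), followed by neuron-like cells at 14.6 CPM (75 UMIs), and the oligodendrocyte-like, choroid plexus-like and microglia-like levels below these did not differ from their neighbours beyond counting error. The annotated Dusp1 gene overlaps Ergic1 and the processed pseudogene Gm8225 on the opposite strand. On its own strand it overlaps the processed pseudogene AC122252.4 and the sense intronic gene AC122252.1. The sources used here do not state how reads in those overlaps were counted.

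Dusp6 (ENSMUSG00000019960, chr10:99263231-99267489, plus strand) encodes the cytoplasmic phosphatase of ERK, and it was the member most evenly shared among microglia-like cells. Its level in library 2 was 396 CPM (384 to 409, 3773 UMIs) in microglia-like cells, 110 CPM (25 UMIs) in pericyte or smooth muscle-like, 48.99 CPM (100 UMIs) in endothelial-like and 4.45 CPM (2 UMIs) in choroid plexus-like cells. Microglia-like cells were 3.61-fold (2.44 to 5.58) above pericyte or smooth muscle-like cells, and these were 2.24-fold (1.39 to 3.50) above endothelial-like cells. In library 1 the microglia-like level was 213 CPM (190 to 238, 311 UMIs), 7.42-fold (6.08 to 9.09) above the 28.7 CPM (147 UMIs) of neuron-like cells. Astrocyte-like cells had 27.2 CPM, oligodendrocyte-like cells 11.8 CPM and choroid plexus-like cells 9.72 CPM, each from 7 or fewer UMIs, and no neighbours below microglia-like cells differed beyond counting error. A cluster of library 2 led by S100a8, S100a9 and Cd74 (67 cells), which are genes of neutrophils and antigen-presenting cells, had 197 CPM of Dusp6.

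The other MAP kinase phosphatases were scarce in microglia-like cells, and Dusp10 and Dusp5 were led by other classes in library 1. Dusp10 (ENSMUSG00000039384), whose protein favours p38 and JNK, was highest in oligodendrocyte-like cells: 41.6 CPM (25.02 to 64.9, 19 UMIs) in the 38 such cells of library 2, a class too small to be compared, and 54.9 CPM (30.0 to 92.1, 14 UMIs) in the 92 of library 1. In library 1 this was 5.65-fold (1.30 to 51.2) above choroid plexus-like cells (9.72 CPM, 2 UMIs), while neuron-like cells had 1.56 CPM (8 UMIs) and microglia-like and astrocyte-like cells had 0 UMIs. Microglia-like cells of library 2 had 1.15 CPM of Dusp10. Dusp5 (ENSMUSG00000034765), a nuclear phosphatase of ERK, had 10.5 CPM (7.92 to 13.8, 54 UMIs) in neuron-like cells, against 1.37 CPM (2 UMIs) in microglia-like cells of the same library, a ratio of 7.70 (2.03 to 65.2), and 0.630 CPM in microglia-like cells of library 2. Dusp4 (ENSMUSG00000031530), a nuclear phosphatase, had 21 UMIs in neuron-like cells (4.10 CPM) and 0 in the microglia-like cells of both libraries. Those zeros allow up to 0.315 CPM in library 2 and up to 2.05 CPM in library 1. Astrocyte-like cells of library 1 had 3.89 CPM of Dusp4 (1 UMI). The ratio of neuron-like cells over them was 1.05 (0.170 to 43.6), which includes no difference. Dusp2 (ENSMUSG00000027368), a nuclear phosphatase known from activated immune cells, stayed low in every class, with 4.62 CPM (44 UMIs) in microglia-like and 7.35 CPM (15 UMIs) in endothelial-like cells of library 2, and 2.74 CPM (4 UMIs) in microglia-like cells of library 1. Against oligodendrocyte-like cells of library 1, 6 members were tested. Socs2 was at least 2-fold higher in neuron-like cells, where 41.5% of genes were, and Dusp10 was lower, as were 19.4% of genes. Dusp4, Dusp5 and Dusp6 were called higher too. The Dusp4 and Dusp5 calls rest on 0 UMIs in oligodendrocyte-like cells. These allow up to 11.8 CPM, above the neuron-like levels, so their direction is not known, and the Dusp6 ratio of 2.44 (0.818 to 11.96) includes no difference.

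Socs3 (ENSMUSG00000053113, chr11:117966079-117970047, minus strand), which blocks signalling by the IL-6 family of receptors, had the highest member level in microglia-like cells of library 2. That level was 984 CPM (964 to 1004, 9373 UMIs), against 454 CPM (425 to 484, 926 UMIs) in endothelial-like, 17.6 CPM (4 UMIs) in pericyte or smooth muscle-like and 4.45 CPM (2 UMIs) in choroid plexus-like cells. The microglia-like level was 2.17-fold (2.03 to 2.32) that of endothelial-like cells, and the endothelial-like level was 25.8-fold (10.1 to 94.97) that of pericyte or smooth muscle-like cells. The endothelial-like level also leaned on a few large cells, and without the cells over 30000 UMIs it was 239 CPM. In library 1 Socs3 had 24.6 CPM (17.3 to 34.1, 36 UMIs) in microglia-like cells, 1.37 CPM (7 UMIs) in neuron-like, 3.89 CPM (1 UMI) in astrocyte-like and 9.72 CPM (2 UMIs) in choroid plexus-like cells, and 0 UMIs in oligodendrocyte-like cells. Microglia-like cells were 18.0-fold (7.91 to 48.0) above neuron-like cells, but the 2.53-fold ratio over choroid plexus-like cells (0.652 to 21.7) did not exceed counting error.

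Socs2 (ENSMUSG00000020027, chr10:95385362-95417180, minus strand), which restrains growth hormone and STAT5 signalling, was lower than Socs3 in microglia-like cells and higher in neuron-like cells. It was nearly absent from microglia-like cells, with 3.15 CPM (30 UMIs) in library 2 and 7.53 CPM (11 UMIs) in library 1. In library 2 endothelial-like cells led with 130 CPM (115 to 147, 266 UMIs), 11.7-fold (4.96 to 36.4) above choroid plexus-like cells (11.1 CPM, 5 UMIs), and pericyte or smooth muscle-like cells had 0 UMIs, which allows up to 13.2 CPM. In library 1 neuron-like cells led with 219 CPM (206 to 232, 1121 UMIs), 7.50-fold (3.44 to 20.5) above choroid plexus-like cells (29.2 CPM, 6 UMIs), followed by astrocyte-like cells at 19.4 CPM (5 UMIs) and oligodendrocyte-like cells at 3.92 CPM (1 UMI). The summed level of the 10 neuron markers was 450 CPM in microglia-like and 599 CPM in astrocyte-like cells of that library, against 6285 CPM in neuron-like cells, and the part of RNA from neurons in the Socs2 UMIs of those 2 classes was not tested.

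Socs2 also differed widely among neuron-like cells. Split by clusters of both libraries' cells made without the 9 genes, its level was 526 CPM (483 to 571, 569 UMIs) in the 385 neuron-like cells of a cluster led by Rnf182 and Nectin3, against 12.5 CPM (6.68 to 21.5, 13 UMIs) in the 674 of a cluster led by C1ql2 and C1ql3, a 41.9-fold ratio (24.3 to 79.2). C1ql2 is known from dentate granule cells and Nectin3 from CA3 pyramidal cells, but the clusters were not named here. A cluster led by Fras1 and Dcn had 319 CPM (282 to 360), a cluster whose leading genes include Ctgf and Nxph3 had 283 CPM (214 to 369), a cluster led by haemoglobin genes had 239 CPM (199.98 to 283), and the cluster with the interneuron genes Sst, Npy and Gad2 had 198 CPM (134 to 283). Neighbours among these 4 did not differ beyond counting error, and pairs farther apart among them were not compared. The cluster led by Fibcd1 and Pou3f1, genes known from CA1 pyramidal cells, had 30.5 CPM (21.4 to 42.3), 2.44-fold (1.26 to 5.004) above the C1ql2 cluster. With every cell thinned to 1000 UMIs, 38.2% of cells (33.3 to 43.2) of the Rnf182 cluster had a Socs2 UMI, against 1.04% (0.419 to 2.13) of the C1ql2 cluster. Snap25, a neuron marker, had 669 CPM in the Rnf182 cluster and 457 CPM in the C1ql2 cluster, and over the 7 clusters compared it lay between 369 CPM (Fibcd1 cluster) and 783 CPM (Ctgf cluster).

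The MAP kinase phosphatases followed other orders in the same clusters. Dusp6 was highest in the Fibcd1 cluster at 63.6 CPM (50.1 to 79.8, 75 UMIs) and lowest in the C1ql2 cluster at 3.86 CPM (4 UMIs), a 16.5-fold ratio (6.18 to 62.1), and it was 14.8 CPM (16 UMIs) in the Rnf182 cluster where Socs2 was highest. Dusp5 had 20.3 CPM (22 UMIs) in the Rnf182 cluster and 17.0 CPM (20 UMIs) in the Fibcd1 cluster, which did not differ beyond counting error, and 2.89 CPM (3 UMIs) in the C1ql2 cluster. Dusp1 had 51.5 CPM (10 UMIs) in the Ctgf cluster and 37.7 CPM (21 UMIs) in the haemoglobin-led cluster, against 3.70 CPM (4 UMIs) in the Rnf182 cluster.

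**Figure D2:**
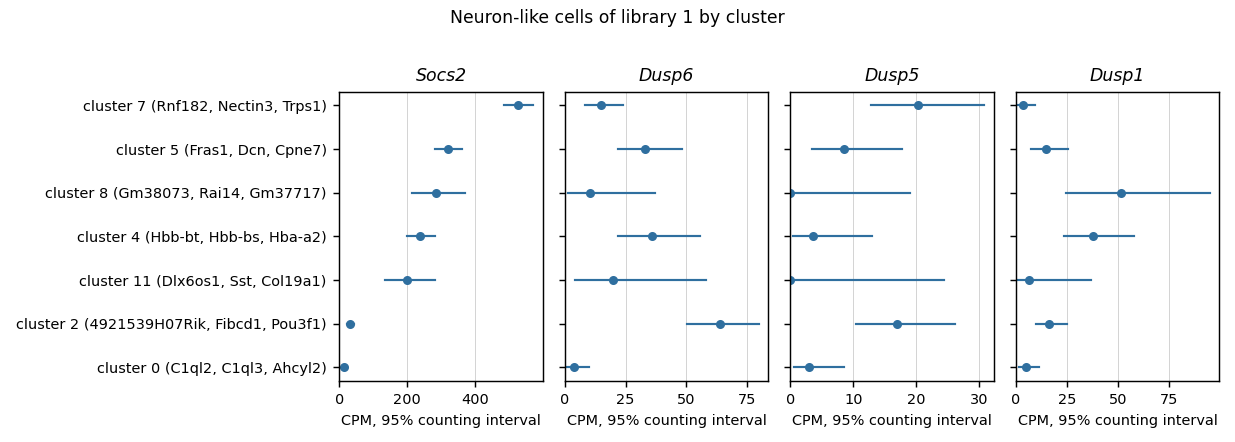
Level (CPM, with 95% counting intervals) of Socs2, Dusp6, Dusp5 and Dusp1 in the neuron-like cells of library 1, split by cluster and ordered by Socs2; 3 leading genes of each cluster are given. Socs2 spans 12.5 to 526 CPM, whereas Dusp6 peaks at 63.6 CPM in the Fibcd1 cluster.

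Socs1 (ENSMUSG00000038037), the inhibitor of JAK kinases downstream of interferon receptors, was low in every class. It had 6.19 CPM (4.71 to 7.99, 59 UMIs) in microglia-like, 9.80 CPM (20 UMIs) in endothelial-like and 8.90 CPM (4 UMIs) in choroid plexus-like cells of library 2. Microglia-like cells of library 1 had 5.47 CPM (2.36 to 10.8, 8 UMIs) and neuron-like cells 1.17 CPM (6 UMIs). No neighbours in the order of either library differed beyond counting error. Microglia-like and neuron-like cells of library 1 were not neighbours in that order, and the neuron-like interval was 0.430 to 2.55 CPM.

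Among the microglia-like cells of library 2, Dusp1 and Socs3 were concentrated in some cells and Dusp6 was spread over most. Dusp1 had 0 UMIs in 915 of the 1343 cells (68.1%) and 10 or more in 157, up to 79 in 1 cell. Socs3 had 0 UMIs in 604 cells (45.0%) and 10 or more in 297, up to 116. Dusp6 had 0 UMIs in 213 cells (15.9%) and 10 or more in 43, up to 40. The 10% of cells with the most UMIs of a gene held 74.5% of the Dusp1, 56.6% of the Socs3 and 33.4% of the Dusp6 UMIs. In microglia-like cells of library 1 no cell had more than 1 Dusp1 or 2 Socs3 UMIs, and Dusp6 had 0 UMIs in 412 of 641 cells (64.3%) and at most 6.

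**Figure D3:**
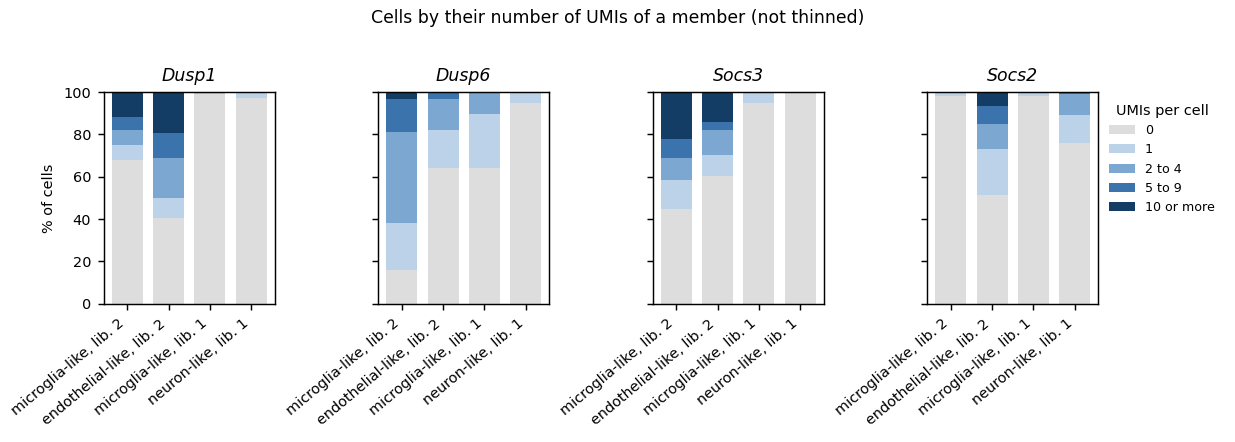
Share of cells (percent) with 0, 1, 2 to 4, 5 to 9 and 10 or more UMIs of Dusp1, Dusp6, Socs3 and Socs2 in microglia-like and endothelial-like cells of library 2 and in microglia-like and neuron-like cells of library 1; cells were not thinned, and library 2 cells are deeper. Dusp1 has 0 UMIs in 68.1% of microglia-like cells of library 2 and Dusp6 in 15.9%.

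The libraries differ in depth, so shares of cells were also taken after thinning each cell to 1000 UMIs. Dusp6 was then seen in 30.2% (27.8 to 32.8) of microglia-like cells of library 2 and 18.1% (15.2 to 21.3) of those of library 1. Socs3 was seen in 32.4% (29.9 to 35.0) in library 2 and 2.34% (1.32 to 3.83) in library 1, and Dusp1 in 18.4% (16.4 to 20.6) in library 2 and 0.468% (0.0966 to 1.36) in library 1. Choroid plexus-like cells, taken as a measure of background, gave 1 of 53 cells (1.89%) for Dusp1 and for Socs3 in library 2, and in library 1 1 of 58 (1.72%) for Socs3 and none for Dusp1. For Dusp1 in library 1, 0 of 58 cells allows up to 5.17%, and for Socs3 the choroid plexus-like interval there is 0.0436 to 9.24. These 58 cells are too few to tell the low microglia-like shares of library 1 from background, so no conclusion is drawn from them. Unthinned shares were 84.1% for Dusp6, 55.0% for Socs3 and 31.9% for Dusp1 in library 2, and 35.7%, 5.30% and 0.624% in library 1. In the larger neuron-like class of library 1, 0.278% of unthinned cells had a Socs3 UMI, below the microglia-like share. Dusp1 went the other way, with 2.50% of neuron-like cells. The part of background in these shares was not tested.

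Dusp1 and Socs3 tended to be seen in the same microglia-like cells of library 2. At 1000 UMIs per cell, Socs3 was present in 72.1% of the 247 cells with a Dusp1 UMI and in 23.5% of the 1096 without. Dusp1 was present in 48.4% of the 419 cells with Fos, the inducible AP-1 subunit, and in 4.76% of the 924 without. Socs3 was present in 71.1% of the cells with Fos and in 14.8% of those without. Dusp6 showed a smaller gap, 35.3% with Fos and 27.9% without. Cells differ in more than these genes, and the pairs come from 1 library, so these shares are descriptions.

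The same contrast appeared when cells were ordered by the summed share of 7 early response factors (Fos, Fosb, Jun, Junb, Egr1, Atf3 and Ier2) and cut into 4 bins of 335 or 336 cells. From the lowest to the highest bin, Dusp1 was at 4.59, 18.7, 321 and 1368 CPM. Socs3 was at 28.0, 73.0, 782 and 2630 CPM over the same bins. Dusp6 spanned far less, at 290.4, 357, 380.4 and 525 CPM. Socs1 was at 7.80, 6.55, 5.29 and 5.45 CPM and did not differ between bins beyond its counting intervals. P2ry12, a microglia marker, was at 3632, 3655, 3106 and 2666 CPM. The median UMIs per cell were 6453, 6014, 6932.5 and 7860.0 and the median mitochondrial shares 4.38%, 4.19%, 4.72% and 4.93%, and their part in these differences was not tested. The gene sets do not overlap, but the bins were cut from the same cells, so the values are a description.

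**Figure D4:**
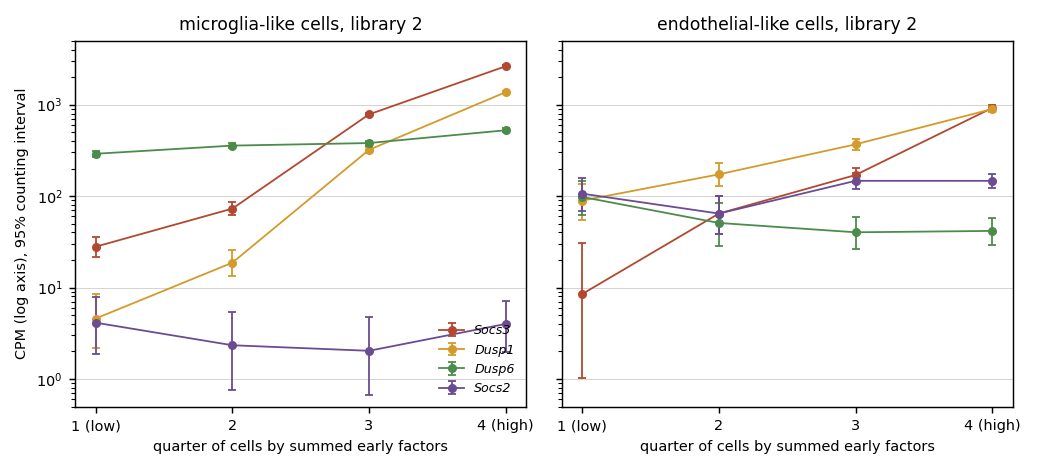
Level (CPM, log axis, with 95% counting intervals) of Socs3, Dusp1, Dusp6 and Socs2 in microglia-like (left) and endothelial-like cells (right) of library 2, cut into 4 bins by their summed early response factors. In microglia-like cells Dusp1 spans 4.59 to 1368 CPM and Dusp6 290.4 to 525 CPM; in endothelial-like cells Dusp1 and Socs3 are highest in the top bin, and Dusp6 is not.

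The kept cells of both libraries were clustered together, without the members and the early factors. In 5 clusters most gated cells were microglia-like, and the 2 with the most library 2 cells are given here, for those cells alone. Dusp1 had 987 CPM (958 to 1017) in a cluster of 542 cells led by Atf3, Egr1 and Ccl4, and 61.5 CPM (55.0 to 68.5) in a cluster of 820 led by Csmd3 and P2ry12. Socs3 had 2019.7 CPM (1978 to 2062) in the Atf3 cluster and 131 CPM (122 to 141) in the P2ry12 cluster. Dusp6 had 467 CPM (447 to 488) in the Atf3 cluster and 338 CPM (322 to 354) in the P2ry12 cluster. Dusp2 had 9.53 CPM (42 UMIs) in the Atf3 cluster and 0.940 CPM (5 UMIs) in the P2ry12 cluster. A cluster is made from the cells it describes, so these values carry no test.

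Endothelial-like cells of library 2 shared the rise of Dusp1 and Socs3 with the early factors. They also carried Socs2, which did not rise from bin to bin as those 2 genes did. Over their own 4 bins of 33 or 34 cells by early factors, Dusp1 was at 89.3, 173, 368 and 895 CPM and Socs3 at 8.51, 64.4, 170.1 and 919 CPM. Socs2 was at 106, 64.4, 147 and 147 CPM, and Dusp6 at 97.8, 50.9, 40.2 and 41.6 CPM, so that Dusp6 was not highest in the bin where Dusp1 was. Median UMIs per cell were 4604.5, 5354.5, 10221 and 13037 over these bins, and the part of depth and cell size was not tested. Against endothelial-like cells, 2 of 6 members tested were at least 2-fold higher in microglia-like cells (Dusp6 at 8.09-fold, 6.63 to 9.96, and Socs3), where 23.0% of 12800 genes were, and Socs2 was lower, at a ratio of 0.0242 (0.0160 to 0.0353), as were 18.6% of genes. Against neuron-like cells of library 1, Dusp6 and Socs3 were higher in microglia-like cells, where 24.4% of 14211 genes were, and 4 of 6 members (Dusp1, Dusp4, Dusp5 and Socs2) were lower, as were 40.2%. Of these, the calls of Dusp1, Dusp4 and Dusp5 were lost when 10 CPM were added before the ratio.

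The kinases and receptors of these pathways were measured in the same classes, and whether they lay in the same cells as the members was not tested. Of 10 receptors that signal through JAK and STAT, 9 were tested against neuron-like cells and 8 were at least 2-fold higher in microglia-like cells of library 1, as were 24.4% of all genes, with a median log2 ratio of 3.86, against -0.47 over all genes. Ifngr1, a chain of the interferon gamma receptor, had 1091 CPM in microglia-like and 8.20 CPM in neuron-like cells, and Il6ra had 372 CPM in microglia-like and 11.1 CPM in neuron-like cells. Against endothelial-like cells of library 2, 4 of the 10 receptors were higher in microglia-like cells and 3 (Osmr, Lifr and Ifnar1) lower, where 23.0% of all genes were higher and 18.6% lower. Of 14 MAP kinase cascade genes, 13 were tested in that comparison, and 9 stayed within 2-fold, with Mapk3 (ERK1) at 124 CPM in microglia-like and 182 CPM in endothelial-like cells and Mapk14 (p38 alpha) higher at 78.9 CPM in microglia-like and 38.2 CPM in endothelial-like cells. Of 11 JAK and STAT genes, 10 were tested, 8 stayed within 2-fold and 2 (Jak2 and Stat2) were lower in microglia-like cells, while Stat3 was at 80.3 CPM in microglia-like and 145 CPM in endothelial-like cells.

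Other feedback genes are set beside the same shares of all genes, 23.0% higher and 18.6% lower in microglia-like than in endothelial-like cells. Of the 6 further MAP kinase phosphatases, 4 were tested between microglia-like and endothelial-like cells of library 2, none was higher in microglia-like cells and 2 (Dusp3 and Dusp8) were lower. Dusp7, another cytoplasmic phosphatase of ERK, had 163 CPM in microglia-like and 106 CPM in endothelial-like cells, and in library 1 135 CPM in microglia-like and 24.8 CPM in neuron-like cells. Of the 5 further SOCS genes, Socs6 was higher in microglia-like cells (48.6 CPM, against 22.0 CPM in endothelial-like cells), and Cish (0.840 CPM in microglia-like and 39.7 CPM in endothelial-like cells) and Socs5 were lower. Of 8 Sprouty, Spred and related inhibitors of receptor tyrosine kinase signalling, 6 were tested, none was higher in microglia-like cells and 3 (Spry2, Spry4 and Spred2) were lower. Against pericyte or smooth muscle-like cells, 5 of 6 of these inhibitors were lower in endothelial-like cells, where 16.9% of 9180 genes were. Of 5 members tested there, Dusp1, Socs2 and Socs3 were higher, as were 22.3% of genes, and Dusp6 was lower. Socs1 was called higher on 20 UMIs against 0. That zero allows up to 13.2 CPM, above the endothelial-like level of 9.80 CPM, so its direction is not known.

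The gene whose level was most like that of Dusp1 over the 9 pairs of class and library, among 3881 genes averaging at least 50 CPM, was Fos (Pearson r of 0.92 on log2 CPM plus 1), followed by Egr1 (0.83), Fosb (0.80), Socs3 (0.78) and Nfkbia (0.78). The genes most like Socs3 were Atf3 (0.95), Ier5 (0.94), Ier2 (0.92), Zfp36 (0.92) and Icam1 (0.91). Within the members, Dusp6 had an r of 0.68 with Socs3 and 0.45 with Dusp1, and Socs2 of -0.04 with Socs3. The points share 2 libraries and their depth, and an r over 9 of them is a description. Fos itself had 1597 CPM in microglia-like and 1943 CPM in endothelial-like cells of library 2, and 2.74 CPM in microglia-like cells of library 1.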

How the data were processed

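The authors deposited 1 matrix of unnormalized UMI counts (genes by barcodes) for each library. Cell Ranger 3.0.1 and the build GRCm38.p5 are named per the submitters' processing notes, and no source used here says how reads in overlapping genes were counted. Barcodes under 1000 UMIs, under 500 genes or over 10% mitochondrial UMIs were left out. Doublets were called with scanpy 1.11.5: in library 2 the automatic threshold marked 0.0% of all barcodes, so the 5.16% with the highest scores were called instead, and in library 1 it marked 12.8% of all barcodes. Of the barcodes that passed the other filters, these calls removed 87 of 2164 in library 2 and 1220 of 7209 in library 1. A cell joined a class with at least 3 of its markers and at least 0.75 of all class marker UMIs.

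UMIs were summed per class and library and given as CPM with exact Poisson 95% intervals, ratios of sums with exact conditional intervals and shares with Clopper-Pearson intervals, all of which cover counting error only. A count of 0 was given the limit of 3 counts. Genes with at least 20 UMIs in a pair of classes of at least 50 cells were called higher or lower at 2-fold on CPM plus 1. Cells of both libraries were clustered together with 2000 variable genes, 30 components, 15 neighbours and Leiden resolution 1. The genes named are the 9 members, the genes of the pathway lists and the 5 genes most like Dusp1 and Socs3; cluster genes were chosen after their values were seen. Members and lists were chosen with earlier results of these data known. Python 3.11.15, numpy 2.4.6, scipy 1.17.1 and pandas 2.3.3 were used.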

Additional observations from a re-analysis of the deposited data

Results flagged for a closer look

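Barcodes of library 2 with over 10% and up to 20% mitochondrial UMIs lie outside the filtered cells, and members were above the limit of 3 counts there too. In the 133 microglia-like barcodes of that range Dusp1 had 511 CPM, Dusp6 330.1 CPM and Socs3 1169 CPM. In the 35 endothelial-like barcodes of that range Dusp1 had 197 CPM, Dusp6 85.3 CPM, Socs2 131 CPM and Socs3 52.5 CPM (8 UMIs).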

How the results depend on the processing

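No paired analysis was possible because there are 2 libraries with no replicates, and none could be left out in turn. The count of members at least 2-fold higher in microglia-like cells than in each other class was 2 in each library. It was 1 in library 2 with classes from clusters, and 1 in library 1 with a gate share of 0.9, classes from clusters, a mean of CPM over cells, or 10 CPM added; the cause was not tested. A gate share of 0.9 left only microglia-like cells to compare in library 2 and gave no count there. The summed microglia-like level of library 2 (1879 CPM) was 1830.5 CPM with classes from clusters, 1652 CPM as a mean over cells, 2159 CPM without mitochondrial and ribosomal protein genes, and 1845 CPM with a gate share of 0.5. Thinned to 2000 UMIs, the shares of microglia-like cells were 23.3% for Dusp1, 48.3% for Dusp6 and 40.4% for Socs3 in library 2, and 32.1% for Dusp6 and 4.83% for Socs3 in library 1. Not thinned, they were 31.9%, 84.1% and 55.0% in library 2, and 35.7% and 5.30% for Dusp6 and Socs3 in library 1. The Socs2 log2 ratio of microglia-like over pericyte or smooth muscle-like cells, which rests on 0 UMIs, turned to -0.94 with a mitochondrial limit of 20%, -1.05 with no doublets removed and -0.50 with a gate share of 0.5. Of the other log2 ratios, 304 kept their call and 15 lost it, and 391 levels stayed in their interval and 41 did not. The gate share of 0.5 and the limit of 30000 UMIs were chosen after seeing the data. Depth limits the classes of about 50 cells, where 3 counts equal 13.2 CPM in pericyte or smooth muscle-like cells.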

Other observations

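The 2 libraries are not assigned to a method, and their values are set side by side without a test. In microglia-like cells Dusp1 was 177-fold (68.9 to 648) and Socs3 39.9-fold (28.8 to 57.1) higher in library 2 than in library 1, where 4.48% of 12395 genes were at least 2-fold higher. Dusp6 was 1.86-fold (1.66 to 2.10) higher, and Socs1 had a ratio of 1.13 (0.538 to 2.74). Socs2 had a ratio of 0.418 (0.204 to 0.925), and 9.8% of genes were at least 2-fold lower. The median log2 ratio of all genes was -0.19. In choroid plexus-like cells Dusp1 had a ratio of 0.915 (0.131 to 10.1), and in oligodendrocyte-like cells Dusp10 had a ratio of 0.757 (0.360 to 1.63). Each library is 1 pool prepared separately, so pool, depth and preparation cannot be told apart.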
